A study of Rattus norvegicus and Ovis aries with 113 samples.

Results

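The genes described here are 8 genes of squamous and mucosal surface epithelium: LORICRIN, CNFN, TGM1, TGM3, MUC21, NCCRP1, TFF3 and APOBEC1. They were taken by symbol, after it was put in upper case, from the count tables of sheep and rat. All 8 were among the 31304 genes of the sheep table and 7 were among the 38675 genes of the rat table, where MUC21 had no match. They were chosen for their levels in sheep sperm against sheep brain and for how these differed from rat, so those levels are given as a description with no test. Contrasts other than these were tested: rat ovary against female rat brain, and the regions of the sheep brain. The rule that named the genes also lists their levels in rat ovary and in brain. Earlier results of these data were known as well, so these tests cannot be taken as independent of the choice.

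No animal in the series received a treatment. The sheep (Ovis aries) were 5 males past puberty, named 687, 688, 690, 694 and 699, and from each a sperm sample and 10 dissected brain regions were sequenced, which made 55 libraries. From 15 male Sprague Dawley rats past puberty, whole brain and a sample labelled sperm, which the study's design text calls seminal fluid, were sequenced. From 14 female Sprague Dawley rats, whole brain and ovary were sequenced, so rat made 58 libraries. No genotype or allele is given, and the ages of the animals are not given beyond puberty in the males. Extraction and library kits differed between the species, so species and preparation cannot be told apart. In bulk samples such as these, fewer cells of a type and less RNA per cell cannot be told apart either.

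Stratified squamous epithelium covers skin and the lining of the mouth, oesophagus, prepuce and vagina. As its cells move to the surface they build the cornified envelope, a sheath of proteins such as loricrin and cornifelin that transglutaminases link to one another beneath the membrane. Moist, non-keratinized linings make another set of keratins than skin does, with large membrane mucins on the surface, while trefoil peptides are secreted with mucus by glandular epithelium. By known role, only LORICRIN, CNFN, TGM1 and TGM3 are genes of the cornified envelope. MUC21 encodes a membrane mucin, TFF3 a trefoil peptide and APOBEC1 the cytidine deaminase that edits apolipoprotein B messenger RNA, so the word cornified describes a subset.

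Sequence was at hand for rat promoters only, from RefSeq on build GRCr8, and 6 of the 7 rat members had an entry. The 3 shown are members that were abundant in sheep sperm and nearly without counts in rat sperm. Each is the 250 bases before the annotated start, on the strand of the gene. Capitals mark matches to the TATA box letters TATAAA or to the AP-1 motif TGANTCA, which were searched on both strands together with the grainyhead core AACCGG.
Loricrin, chr2:180256573-180256822, minus strand: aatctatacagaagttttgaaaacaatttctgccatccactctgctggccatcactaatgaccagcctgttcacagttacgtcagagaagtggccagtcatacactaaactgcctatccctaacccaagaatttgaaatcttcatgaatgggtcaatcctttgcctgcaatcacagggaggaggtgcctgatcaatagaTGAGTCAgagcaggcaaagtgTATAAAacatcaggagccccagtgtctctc
Tff3, chr20:9199334-9199583, minus strand: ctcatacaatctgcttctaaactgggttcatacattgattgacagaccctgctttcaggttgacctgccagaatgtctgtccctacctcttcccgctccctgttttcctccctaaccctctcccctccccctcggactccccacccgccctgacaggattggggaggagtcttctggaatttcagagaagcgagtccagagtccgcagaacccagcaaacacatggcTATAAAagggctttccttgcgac
Cnfn, chr1:90081557-90081806, minus strand: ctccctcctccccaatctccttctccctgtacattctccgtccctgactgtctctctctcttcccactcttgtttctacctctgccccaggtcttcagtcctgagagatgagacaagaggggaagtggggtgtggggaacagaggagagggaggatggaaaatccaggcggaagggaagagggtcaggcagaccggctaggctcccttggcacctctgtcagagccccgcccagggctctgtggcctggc

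The Loricrin window held an AP-1 match beginning 51 bases and a TATA match beginning 30 bases before the start. The Tff3 window held a TATA match beginning 23 bases before the start, and the Cnfn window held none of the 3 motifs. TATAAA also stood in the Tgm3 window, which made 3 of 6 members, against 12.9% of 33469 rat promoter windows. TGANTCA stood in 1 of 6 members and in 6.34% of all windows, and AACCGG stood in none of the 6 and in 5.67% of all windows. A match of letters is a description and not a binding site. In GRCr8 the rat Loricrin gene lies on chromosome 2 from 180253674 to 180256572 and Tff3 on chromosome 20 from 9194623 to 9199333. Cnfn lies on chromosome 1 from 90079409 to 90081556. The Tgm3 gene lies on chromosome 3 from 137681809 to 137717219 and shares 15213 bases with LOC134486444, so its rat counts are uncertain.

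Levels are raw counts divided by the library total and multiplied by 1000000 (CPM). The 5 sheep sperm libraries held 65.1, 49.2, 13.7, 29.5 and 47.4 M counts (M, 1000000) in the order of the names above, and the sheep brain libraries held 46.7 to 72.4 M. In sheep sperm, 4 entries with placeholder names took a share of the counts that ran from 22.4% in sheep 688 to 85.2% in sheep 687, so levels are also given over the total without those entries. The sperm library of sheep 688 stood apart by its sperm genes. Its summed level over 12 spermatid and sperm genes was 62.9 CPM, the lowest of the 5, where the others reached up to 1579 CPM and the sheep brain libraries 23.0 to 88.4 CPM. Results on sheep sperm are therefore given with and without it. By another measure other sperm libraries stood apart. Genes with exactly 1 count numbered 339 in sheep 687, 428 in 694 and 340 in 699, against 987 in 688 and 1038 in 690. Sheep 687 had counts in 16402 genes, the fewest of the sheep libraries. Of the 40 member levels in sheep sperm, 36 rested on over 100 counts, for which the 95% Wilson interval spanned at most 20.6% on either side of the level; these intervals cover counting error only.

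LORICRIN encodes loricrin, the main protein of the cornified envelope in skin. Its level in sheep sperm was 8.83 CPM in sheep 687, 285 in 688, 15.5 in 690, 40.3 in 694 and 9.05 in 699. Sheep 688 was highest, 23.3 times the median of the other 4, and the lowest library still lay above the highest of the 50 sheep brain libraries, at 2.14 CPM. Sperm averaged 71.7 CPM ± 120 (SD, n = 5), and brain averaged 1.02 CPM ± 0.568 (SD, n = 50), a ratio of 70.5, or 18.1 without the sperm library of sheep 688.

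CNFN encodes cornifelin, a smaller component of the same envelope. It stood at 60.6 CPM in sheep 687, 2118 in 688, 383 in 690, 207 in 694 and 602 in 699. Brain averaged 0.220 CPM ± 0.118 (SD, n = 50), and the sperm to brain ratio was 3059, or 1422 without sheep 688. Over the total without the 4 placeholder entries, sheep 688 and 699 drew close, at 2730 and 2482 CPM, and the other 3 ran from 409 to 814. The ratio of CNFN to LORICRIN within a library ran from 5.15 in sheep 694 to 66.5 in 699, so these 2 envelope genes did not keep a fixed proportion.

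TGM1 and TGM3 encode transglutaminases, the enzymes that cross-link envelope proteins. TGM1 stood at 1.67 CPM in sheep 687, 262 in 688, 75.1 in 690, 56.4 in 694 and 23.1 in 699, each above the highest brain library at 0.360 CPM. TGM3 stood at 8.73 CPM in sheep 688, 0.982 in 694, 0.232 in 699 and 0.0730 in 690, and sheep 687 had 0 counts, for which a limit of 3 counts is 0.0461 CPM. The TGM3 levels rested on 429, 29, 11, 1 and 0 counts. Only sheep 688 lay above every brain library, and 2 of the 5 lay below the brain median. The TGM3 ratio of sperm to brain was 5.70 with sheep 688 and 0.915 without it, so its direction on this scale rested on that library. Over the total without the 4 placeholder entries the ratio without sheep 688 was 2.36, so the direction also turned with the denominator.

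MUC21 encodes a large mucin of the surface membrane of squamous mucosa. It stood at 177 CPM in sheep 687, 16368 in 688, 3126 in 690, 1348 in 694 and 1393 in 699. Its 50 brain libraries held 9 counts together. NCCRP1, which encodes an F-box related protein known from squamous epithelium, stood at 28.5, 4033, 483, 191 and 339 CPM in the same order. Its brain libraries held 120 counts, and the ratio of sperm to brain was 23864, or 6120 without sheep 688.

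TFF3 encodes the trefoil peptide that goblet cells secrete with mucus. It stood at 73.3 CPM in sheep 687, 1227 in 688, 569 in 690, 253 in 694 and 464 in 699, against 27 counts over the brain libraries. It was the member least raised in sheep 688, at 3.43 times the median of the others. Over the total without the 4 placeholder entries sheep 699 was highest, at 1914 CPM, followed by 688 at 1582. APOBEC1 stood at 12.0 CPM in sheep 687, 2204 in 688, 306 in 690, 90.0 in 694 and 131 in 699, and its brain libraries held 5 counts. Sheep 688 was 19.9 times the median of the other 4.

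For 7 of the 8 members the lowest sperm level exceeded the highest brain level, TGM3 being the exception. This held for 3.28% of 29381 genes with a count in sheep, and since the members were chosen on this contrast nothing is read from that share. Sheep 687 was the lowest library for all 8 members on the plain total. Over the total without the 4 placeholder entries, LORICRIN was lowest in sheep 690 instead, at 32.9 CPM.

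**Figure D1:**
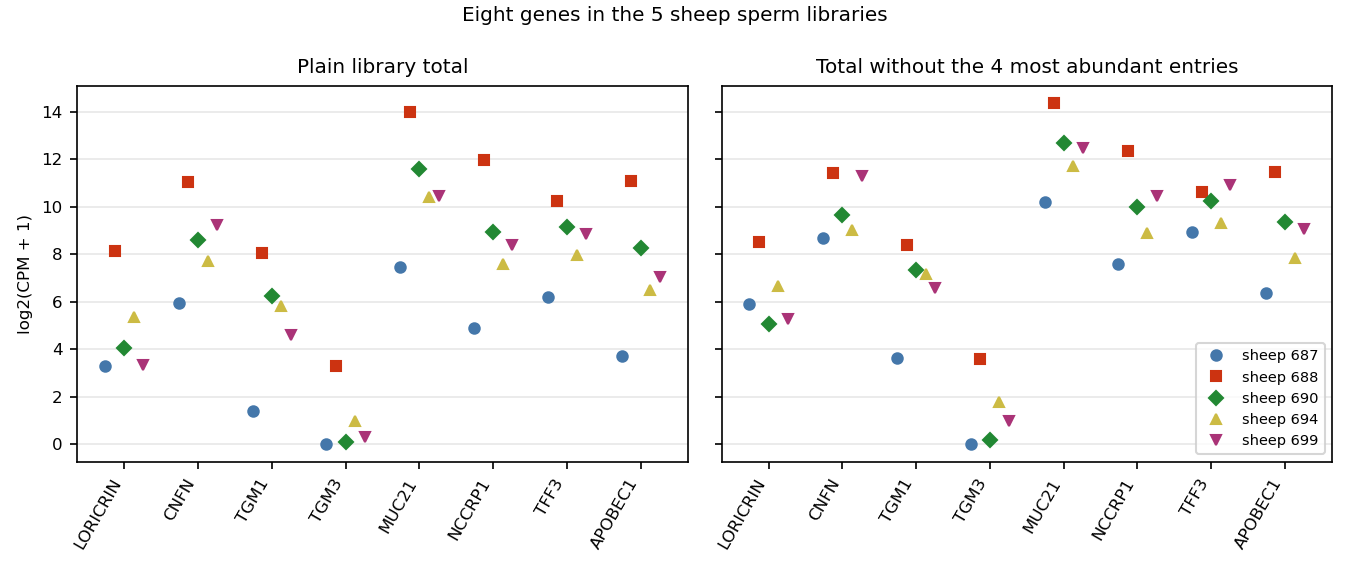
The vertical axis is log2(CPM + 1) of each of the 8 genes in the 5 sheep sperm libraries, 1 marker per sheep, over the plain library total (left) and over the total without the 4 most abundant placeholder entries (right). Sheep 688 is the highest marker of every gene on the left, while on the right TFF3 is highest in sheep 699 and CNFN is nearly level between sheep 688 and 699.

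The members varied among themselves. Of the 28 pairs, NCCRP1 and APOBEC1 kept the steadiest proportion over the 5 sperm libraries, with an SD of 0.28 in the log2 of their ratio. NCCRP1 was 1.58 to 2.58 times APOBEC1 within a library, although each gene's level spanned more than 100-fold between sheep. MUC21 kept nearly as steady a proportion to both, with SDs of 0.38 to NCCRP1 and 0.42 to APOBEC1. CNFN and TFF3 came next, with an SD of 0.56. Every pair with LORICRIN had an SD of at least 1.42, and every pair with TGM3 at least 1.76. These are ratios of counts within a library, so no library total enters as a divisor. For the SDs a small constant was added to each count. TGM3 had 0 counts in sheep 687 and 1 in 690, so its ratios there depended on that constant and on depth. The steadiness describes 5 libraries and was not tested.

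The sheep genes whose profile over the 5 sperm libraries was nearest to the mean of the members were sought among 261 genes above 10 CPM in sperm and below 1 CPM in brain. The measure was the root mean square difference of centred log2(CPM + 1) values, for which the median gene scored 0.99. Among the nearest were NECTIN4, which encodes a cell adhesion protein, at 0.20, ENPP3 at 0.23 and OVOL1, a transcription factor gene of epithelium, at 0.24. CLIC2, TMPRSS4, PRSS8, H1-6, EPHA1 and ATP12A were also among the nearest 10, at 0.25 to 0.32. NECTIN4 stood at 2.10, 104, 15.6, 12.1 and 11.9 CPM in the order 687 to 699.

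Single members had other neighbours. MUC21 was nearest to TCN1, the vitamin B12 binding protein haptocorrin, at 0.080, and then to PSORS1C2 at 0.20. NCCRP1 and APOBEC1 shared RNF223 as the nearest gene, at 0.17 and 0.24, with KRT23 and SLC52A3 as the second. TFF3 was nearest to the water channel gene AQP5 and to GPX2, both at 0.21. CNFN was nearest to PGLYRP4 at 0.30 and IFI30 at 0.35, and TGM1 to PRSS27 at 0.31 and TMEM171 at 0.39. The 2 members farthest from the mean of all 8, TGM3 and LORICRIN, had looser neighbours. TGM3 was nearest to CAPN14 at 0.45 and DMKN at 0.47, and LORICRIN to CLDN17 at 0.54 and KCNJ15 at 0.64.

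Other genes of squamous and mucosal epithelium were taken from 10 lists with 131 genes beside the members, of which 104 were in the sheep table. In edgeR's quasi-likelihood test of sheep sperm against the mean of the 10 brain regions, 91 passed the low-count filter, 82 of them were higher and 5 lower at an adjusted p below 0.05 and a log2 fold change of at least 1. Over all 21859 genes tested 33.1% were higher and 41.1% lower. The median log2 fold change of the listed genes was 6.25, against -0.42 over all genes. Without the sperm library of sheep 688, 77 of 93 were higher and 5 lower, against 31.9% higher and 42.6% lower over all genes. The 5 lower were ELOVL4, HOPX, KLK6, MUC5AC and PSCA in both fits. These lists were chosen with earlier results of these libraries known, so the counts and the median are no independent evidence of a direction. Listed genes nearly without counts in brain, such as KRT4 at 0.00622 CPM and CSTA at 0.00389 CPM, passed the filter through sperm alone. For these a higher call was nearly fixed in advance, and how many there were was not counted. For 13 of the 82 the mean plain CPM was lower in sperm than in brain, so their direction depended on the TMM scaling. These were ALOX12B, ALOXE3, APOBEC2, DSC2, DSC3, DSG1, JUP, KLK14, KLK5, MUC2, TGM2, TGM5 and TGM6. The split of calls over all genes also moved with the method, from 7239 higher and 8976 lower with TMM to 8907 and 6980 with upper quartile factors and 9912 and 8118 with DESeq2. Upper quartile factors raised the median log2 fold change of all genes from -0.42 to 0.31.

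In the envelope list, 9 of 10 genes tested were higher. The lower one was HOPX, which is also in the transcription factor list below. SBSN, which encodes suprabasin, averaged 501 CPM ± 235 (SD, n = 5), against 9.33 CPM in brain, CSTA, the protease inhibitor cystatin A, at 475 CPM ± 805, and PPL, the plakin that anchors the envelope to filaments, at 346 CPM ± 171. SBSN stood at 594, 795, 244, 277 and 596 CPM in sheep 687 to 699, and over the total without the 4 placeholder entries it was highest in sheep 687, at 4008 CPM, and lowest in 690, at 519. CSTA reached 1910 CPM in sheep 688 and 18.7 to 215 in the others. FLG, which encodes filaggrin of the skin's granular layer, had counts in 1 of the 5 sperm libraries, at 0.102 CPM.

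Of the 10 squamous keratin genes found in sheep, 8 passed the low-count filter, and all of these were called higher. KRT4, KRT15, KRT17, KRT78 and KRT80 averaged at most 0.126 CPM in brain. For genes so low in brain a higher call was nearly fixed in advance, so nothing is read from the number of calls. KRT13 stood at 708 to 17887 CPM, KRT78 at 80.1 to 7598 CPM and KRT4 at 64.7 to 3162 CPM, with brain means of 0.288, 0.126 and 0.00622 CPM. KRT4 and KRT13 are the keratin pair of the upper layers of moist squamous lining. The skin keratin gene KRT1 reached at most 3.32 CPM, and KRT5, a keratin of basal cells, at most 0.406 CPM. The other basal keratin genes were not low throughout: KRT15 stood at 44.7 to 1183 CPM and KRT14 at 0.0921 to 35.8 CPM. KRT13, KRT78 and KRT4 were each highest in sheep 688 and lowest in sheep 687; over the total without the 4 placeholder entries KRT13 was lowest in sheep 694 instead. Of the 82 listed genes called higher, 65 were highest in sheep 688 and 72 lowest in sheep 687 on the plain total, and 37 and 44 over that other total. Ties at 0 counts were credited to sheep 687, so 72 and 44 are upper limits.

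Of the other transglutaminase genes, 4 of 4 tested were called higher, or 2 of 4 without the sperm library of sheep 688. Their levels were low: TGM2 stood at 6.30 CPM in sperm and 16.0 in brain on the plain total, and TGM7 at 0.858 and 0.0912 CPM. TGM5 stood at 0.170 CPM in sperm and 0.225 in brain, and TGM6 at 0.0596 and 0.110 CPM. The plain means of TGM2, TGM5 and TGM6 were thus lower in sperm, and their higher calls depended on the TMM scaling. TGM1 was the one listed gene of its family above 20 CPM in 4 of the 5 libraries. Among the barrier lipid genes 6 of 9 tested were higher and ELOVL4 was lower. ABHD5 stood at 34.2 CPM ± 52.5 and CERS3, a ceramide synthase, at 21.5 CPM ± 16.1 (SD, n = 5), while SLC27A4 did not pass the test, at 3.68 CPM in sperm and 10.7 in brain.

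Among desmosome and adhesion genes 10 of 11 tested were called higher, or 8 of 11 without the sperm library of sheep 688. PKP1 stood at 36.1 CPM ± 43.4, PERP at 28.2 CPM ± 31.8 and JUP at 12.3 CPM ± 11.3 (SD, n = 5). Their brain means were 4.03, 3.95 and 17.5 CPM. JUP, DSC2, DSC3 and DSG1 had a lower plain mean in sperm than in brain, so their higher calls depended on the TMM scaling. Of the proteases and inhibitors 13 of 15 were higher. SPINK5, the inhibitor of skin kallikreins, stood at 774 CPM ± 364, TMPRSS11D, a serine protease of airway lining, at 314 CPM ± 589, and SERPINB2 at 142 CPM ± 256. SPINK5 ran from 469 to 1322 CPM over the sheep, and TMPRSS11D reached 1364 CPM in sheep 688 and at most 116 in the others. CASP14, the caspase of cornifying skin, had 0 counts in all 5 sperm libraries.

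Of the transcription factor genes 11 of 12 were higher and HOPX was lower. ELF3 stood at 1136 CPM ± 1383, EHF at 266 CPM ± 194 and KLF4 at 65.3 CPM ± 49.4 (SD, n = 5), with brain means of 0.167, 0.0501 and 6.68 CPM. TP63, the factor of basal squamous cells, stood at 4.33 CPM in sheep 694 and stayed below 1 CPM elsewhere. Of the mucosal surface genes 11 of 12 were higher and PSCA was lower. EMP1 stood at 2910 CPM ± 3898, ECM1 at 868 CPM ± 1276 and LYPD2 at 466 CPM ± 374 (SD, n = 5).

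The relatives of TFF3 and APOBEC1 differed from them in level. TFF1 and the gel mucin gene MUC5AC had 0 counts in the 5 sperm libraries. The other trefoil and gel mucin genes were low, led by FCGBP at 4.36 CPM ± 4.12, MUC5B at 1.51 CPM ± 1.44 and AGR2 at 0.768 CPM ± 0.481 (SD, n = 5), although 5 of 6 tested were called higher. In the deaminase list 5 of 5 tested were called higher. RBM47, a cofactor of APOBEC1 editing, stood at 132 to 631 CPM and was highest in sheep 690. APOBEC3A stood at 236 CPM ± 316 with 788 in sheep 688, and APOBEC2 at 0.453 CPM in sperm and 0.560 in brain.

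**Figure D2:**
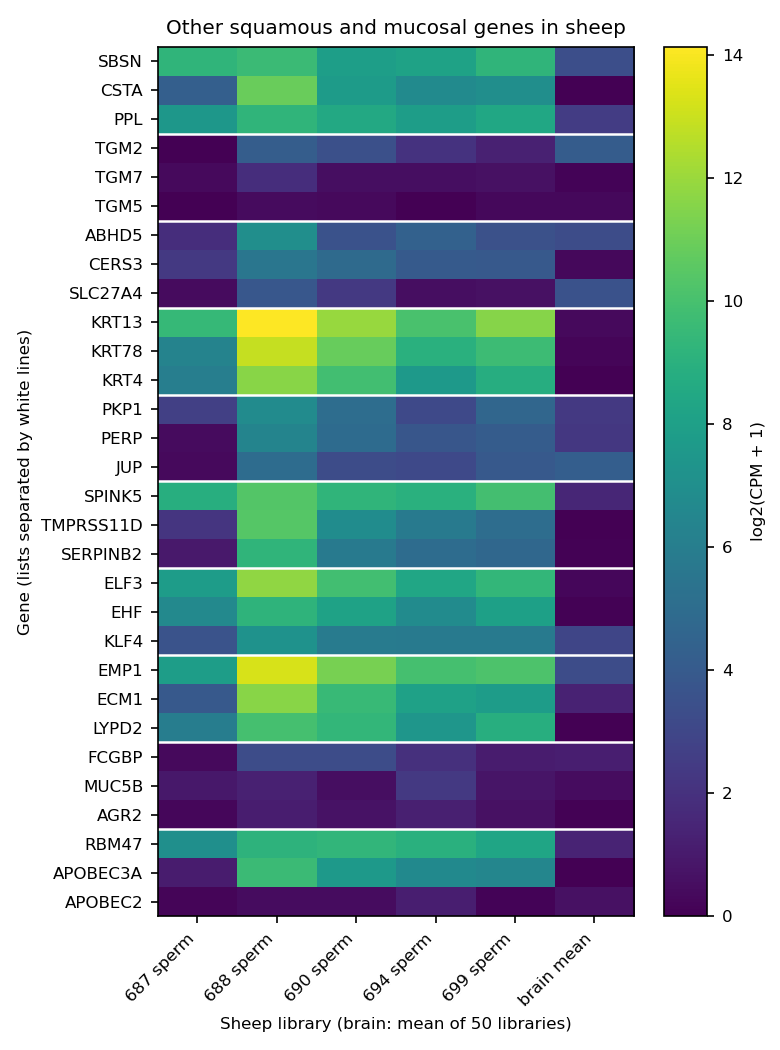
Colour gives log2(CPM + 1) of up to 3 genes from each of 10 lists, those with the highest mean in sheep sperm, in the 5 sperm libraries and as the mean of the 50 brain libraries. KRT13, EMP1 and KRT78 are brightest in sheep 688, SPINK5 and SBSN are bright in all 5, and the trefoil and gel mucin rows are dark throughout.

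Markers of other cell types were present in the same sperm libraries, and their sums did not all follow the order of the members. The 7 simple epithelium genes found were all called higher, with a summed level of 78.3 to 3517 CPM in sperm, highest in sheep 688, and 1.31 to 21.8 CPM in brain. KRT19, CLDN4 and CLDN7 carried that sum, with means of 893, 155 and 47.0 CPM, while KRT8 and KRT18 averaged 0.995 and 0.253 CPM. All 9 neutrophil genes found were called higher, and their sum ran from 1585 CPM in sheep 687 to 39970 CPM in 688, against 1.32 to 12.6 CPM in brain. Without S100A8 and S100A9, which squamous cells also make, the sum of the other 7 was highest in sheep 694, at 1865 CPM, and 321 CPM in 688. Of 6 basal keratinocyte genes tested 4 were higher and ITGA6 was lower, with sums of 47.3 to 1224 CPM in sperm, mostly from KRT15, and 17.5 to 158 in brain. All 12 spermatid and sperm genes were called higher, and their sum was highest in sheep 699, at 1579 CPM, and lowest in 688. The 7 epididymis genes found summed to 0.967 to 43.1 CPM in sperm and to at most 2.35 CPM in brain. ADAM28 alone gave 42.4 CPM of the highest sum, in sheep 688, and without it the other 6 summed to 0.631 CPM there and up to 3.15 CPM in sheep 694. Of the marker genes named as called higher, AKAP4, CABYR, MMP9, EPCAM and COL17A1 had a lower plain mean CPM in sperm than in brain, so their direction also depended on the TMM scaling. The part of any of these in the levels of the members was not tested. For marker genes nearly without counts in brain, such as PRM1 at 0 CPM and S100A8 at 0.0395 CPM, a higher call was nearly fixed in advance too. APOBEC1 is known from the small intestine, and of 8 enterocyte genes APOA4, CDX1, CDX2, FABP2 and VIL1 had 0 counts in sheep sperm and the sum reached at most 2.03 CPM.

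Among the 10 regions of the sheep brain, LORICRIN was the one of the 4 members above the low-count filter with a difference that passed the test. Its level in the cerebellum was 0.0909 CPM ± 0.0215 (SD, n = 5), against 1.12 CPM ± 0.502 over the 45 libraries of the other regions, 12.3 times as much. The 5 cerebellum libraries ran from 0.0535 to 0.106 CPM, and all 45 others lay above them, the lowest at 0.161 CPM. The cerebellum levels rested on 26 counts together. The edgeR F test over the regions gave F = 12.7 and an adjusted p of 9.97e-09, where 76.7% of 21147 genes passed the same test. The order of the means ran from hippocampus at 1.52 CPM, frontal cortex at 1.51, entorhinal cortex at 1.46 and motor cortex at 1.38 through prefrontal cortex at 1.04, visual cortex at 0.949 and posterior parietal cortex at 0.850 to basal ganglia at 0.722 and pons at 0.653. Each of these overlapped its neighbour in the order, and only the step from pons to cerebellum was free of overlap.

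The other members were low across the brain. TGM3 did not pass, with an adjusted p of 0.0818 in edgeR, and passed at 0.0359 when sheep 688 was left out. Its mean ran from 0.698 CPM ± 0.507 in visual cortex to 0.147 CPM ± 0.0869 in pons (SD, n = 5), and all neighbours in that order overlapped. The highest TGM3 library was the motor cortex of sheep 694, at 1.75 CPM, where the other 4 motor cortex libraries were at most 0.325. CNFN and TGM1 did not pass, with adjusted p of 0.337 and 0.215 in edgeR. MUC21, NCCRP1, TFF3 and APOBEC1 fell below the low-count filter. Without that filter NCCRP1 passed, with an adjusted p of 0.0251 in edgeR, and the other 3 did not. Of the 120 brain counts of NCCRP1, 32 were in the cerebellum.

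**Figure D3:**
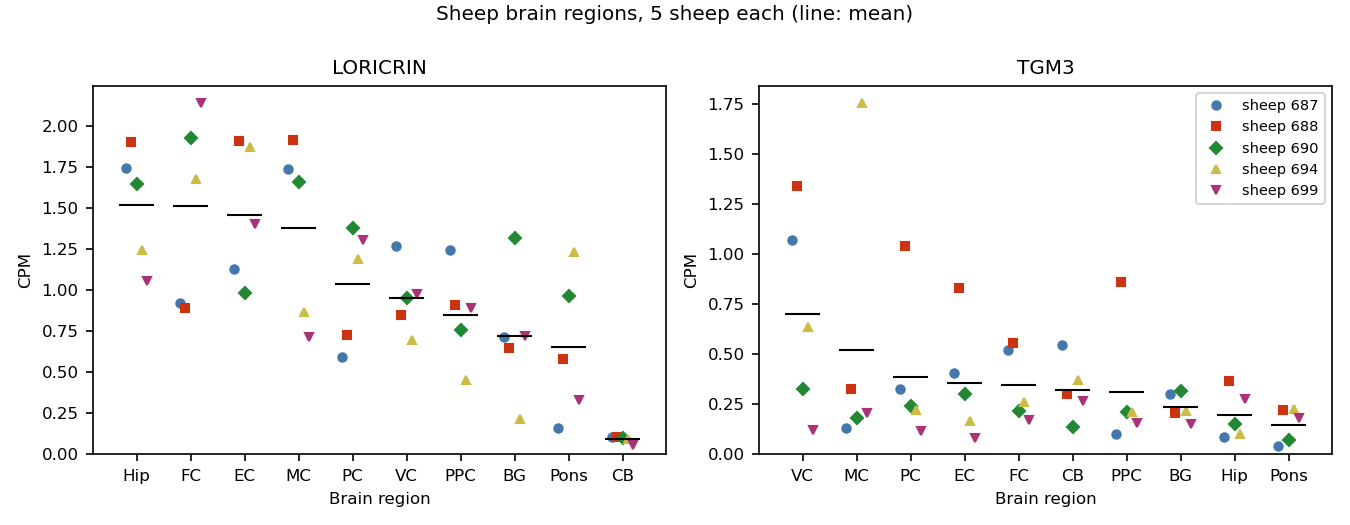
CPM of LORICRIN (left) and TGM3 (right) in 10 brain regions of 5 sheep, with 1 marker per sheep, a line at the mean and regions ordered by it (Hip hippocampus, FC frontal, EC entorhinal, MC motor, PC prefrontal, VC visual, PPC posterior parietal cortex, BG basal ganglia, CB cerebellum). All 5 cerebellum markers of LORICRIN lie at or below 0.106 CPM, under every other region, while the TGM3 regions overlap.

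In rat sperm, 5 of the 7 members had a lower mean than in male rat brain, again as a description, since this difference from sheep served in the choice. Rat sperm libraries 16, 17 and 7 stood apart: only 196, 161 and 215 genes had exactly 1 count there, and 16 and 17 had counts in 13730 and 13059 genes. Library 4 of the male brains and library 1 of the female brains held over 28% of their counts in a ribosomal RNA entry. Loricrin had 8 counts over the 15 sperm libraries, with a highest level of 0.0558 CPM, against a brain level of 0.991 to 13.6 CPM with a median of 7.61. Every sperm library lay below every male brain library, which held for 5.39% of 35486 rat genes. Cnfn had 4 counts in rat sperm and a median of 0.0709 CPM in male brain, so it was near the limit of detection in both.

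Nccrp1 had 37 counts over 8 sperm libraries, with a highest level of 0.209 CPM and a brain median of 1.05 CPM, and was below the brain of the same number in 15 of 15. The labels do not say that a number is 1 rat across tissues, so these counts by number only set libraries side by side. Tff3 had 47 counts, 35 of them in rat 7, where it stood at 0.758 CPM, and a brain median of 1.58 CPM, and was also lower in 15 of 15. Apobec1 had no steady direction: sperm lay above the brain of the same number in 4 rats and below it in 11, with medians of 0.836 and 1.47 CPM. Sperm of rats 16 and 17 had 0 counts of it, and without them the sperm median was 1.05 CPM.

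The transglutaminase genes went the other way in rat sperm. Tgm1 ran from 0 CPM in rat 16 to 24.1 CPM in rat 15 with a median of 9.16, against 0.108 to 1.07 CPM in male brain, and the other 14 sperm libraries lay above every male brain, which all 15 did for 4.57% of genes. Tgm3 ran from 0 CPM in rat 17 to 8.74 CPM in rat 16 with a median of 1.17, against a brain median of 0.266 CPM. Both extremes of Tgm3 were among the libraries that stood apart. Without 16 and 17 it ran from 0.455 to 2.40 CPM, with the same median. The lower end was rat 7, which also stood apart. Tgm3 was above the brain of the same number in 14 of 15 rats and in 3 of 5 sheep.

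Of the 131 other listed genes, 59 were tested in rat sperm against male rat brain, 33 were higher and 15 lower in edgeR, with a median log2 fold change of 2.09. Over all 20480 genes tested 27.7% were higher and 31.5% lower, and the median was -0.03. Without sperm libraries 16 and 17 the counts were 36 and 14 of 62. Here too a listed gene could pass the filter through sperm alone or brain alone. Elf3 and Ehf were abundant, with medians of 269 and 225 CPM in rat sperm, whereas Krt13 and Krt4 had medians of 0.334 and 0.0202 CPM and Krt78, Csta, Tmprss11d and Serpinb2 had medians of 0. Simple epithelium markers, all 8 of them higher, summed to a median of 3048 CPM in rat sperm. Spermatid and sperm markers summed to a median of 1848 CPM, with 11 of 11 tested higher.

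In rat ovary against female rat brain, Apobec1 and Tgm1 rose and Loricrin fell. Of the 7 members 6 passed the low-count filter, Nccrp1 through its brain libraries alone. edgeR called 56.9% of 20801 genes in this comparison, 27.7% higher and 29.2% lower, so calls were common and no share of members is read. Brain library 1, with 29.9% of its counts in a ribosomal RNA entry, gave the lowest brain level of each of these 6 members. Apobec1 ran from 2.53 to 10.6 CPM in ovary with a median of 4.47, and from 0.0587 to 1.85 CPM in brain with a median of 1.04. All 14 ovaries lay above all 14 brains, as they did for 17.7% of genes. Its log2 fold change was 1.97 ± 0.17 (SE), with an adjusted p of 4.95e-12 in edgeR.

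Tgm1 ran from 0.514 to 4.81 CPM in ovary with a median of 1.62, and from 0.0419 to 0.835 CPM in brain with a median of 0.477. The groups overlapped, with 11 of 14 ovaries above all brains. Its log2 fold change was 1.67 ± 0.28 (SE), with an adjusted p of 2.29e-06 in edgeR, and 13 of 14 ovaries were above the brain of the same number.

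Nccrp1 had 10 counts over 3 of the 14 ovaries, the highest at 0.0732 CPM, and a brain range of 0.0252 to 1.58 CPM with a mean of 0.7045. Since it passed the filter only where it was high, no test is given for it, and 14 of 14 ovaries were below the brain of the same number. In 11 of 14 the ovary was below every brain, and all 14 were so for 4.58% of genes. Without brain library 1 the lowest brain stood at 0.279 CPM, above every ovary. The share over all genes was not computed without that library. Loricrin ran from 0.270 CPM in rat 18 to 6.31 CPM in rat 20 in ovary with a median of 0.581, and from 0.403 to 9.40 CPM in brain with a median of 6.41. The groups overlapped, also without brain library 1, where the lowest brain stood at 3.21 CPM. Of the 14 ovaries, 13 were below the brain of the same number. It fell by 2.55 ± 0.39 (SE) on the log2 scale, with an adjusted p of 4.36e-07 in edgeR.

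Tff3 and Tgm3 did not pass. Tff3 had a median of 1.05 CPM in ovary against 1.39 CPM in brain. Its log2 fold change was -0.67 ± 0.33 (SE), with an adjusted p of 0.0570 in edgeR. DESeq2 gave it an adjusted p of 0.0473 at a log2 fold change of -0.69, below the size required for a call. Tgm3 had medians of 0.296 and 0.235 CPM, a log2 fold change of -0.06 ± 0.21 (SE) and an adjusted p of 0.805 in edgeR. Cnfn, with 28 counts over the ovaries, fell below the low-count filter. Of the other listed genes 68 were tested in ovary, 40 were higher and 16 lower, with a median log2 fold change of 1.54 against 0.02 over all genes. These too could pass the filter through ovary alone or brain alone.

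**Figure D4:**
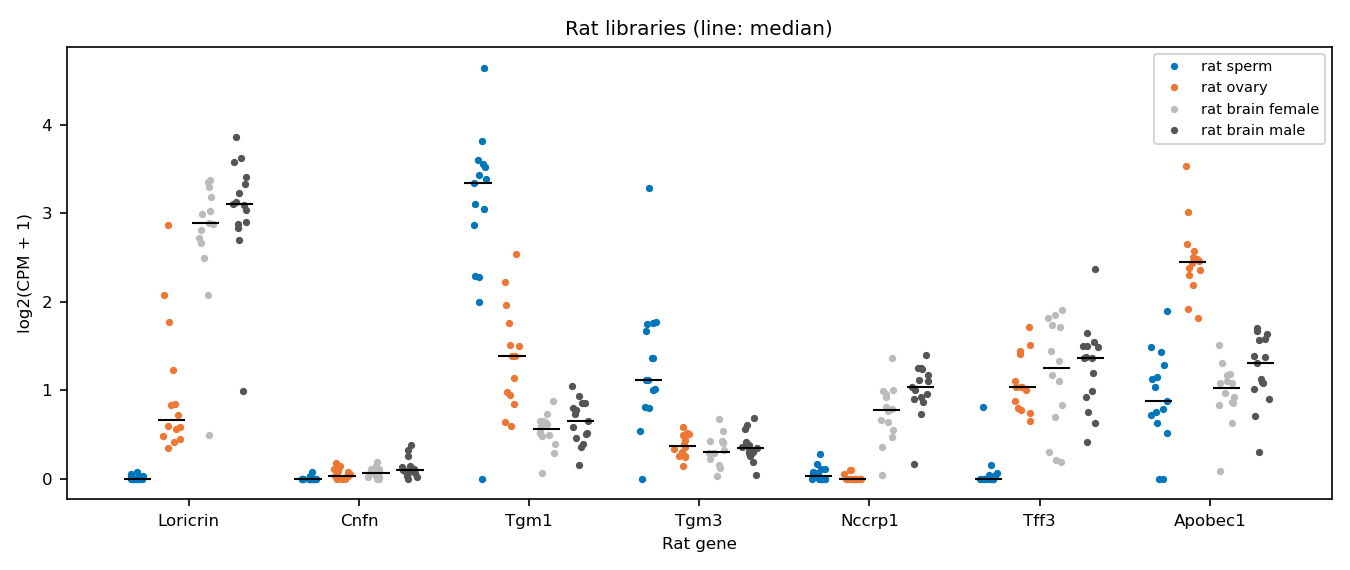
The vertical axis is log2(CPM + 1) of the 7 matched members in rat sperm (15 libraries), ovary (14), female brain (14) and male brain (15), with 1 point per library and a line at the median. Tgm1 and Tgm3 are highest in sperm and Apobec1 in ovary, whereas Loricrin, Nccrp1 and Tff3 have their highest medians in male brain.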

How the data were processed

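The authors deposited raw read counts per gene, 1 column per library, for 55 sheep and 58 rat libraries. Per the labels' protocols, reads were trimmed with Trimmomatic 0.39, aligned with STAR 2.7.5a and counted with Rsubread 2.20.0; the strand setting and the treatment of reads that map to several places are not stated in the text used here, so genes with near-identical copies are uncertain. Levels here are CPM of the plain library total. edgeR 4.0.16 (R 4.3.3) was used with the quasi-likelihood test, TMM factors, filterByExpr on the groups and a prior count of 0.125, and was tested on simulated data; p-values were adjusted by Benjamini-Hochberg over all genes tested. Calls needed an adjusted p below 0.05 and, between tissues, a log2 fold change of 1 or more in either direction. DESeq2 1.42.0, other factors, no filter, blocks and left-out libraries were alternatives. SEs were computed back from F. Whether libraries of a group came from separate collections beyond the animal is not stated.

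The members and all gene lists were chosen with earlier results of these data known. Named genes are the members, up to 3 genes per list with the highest mean in sheep sperm and the nearest genes by profile, of which 1 is not reported here; FLG, KRT1, KRT5, KRT14, KRT15, CASP14, TP63, TFF1 and MUC5AC, and the genes that failed a test or changed direction, were named after their values were seen. Sheep numbers name the same animal in sperm and brain, per the labels; deviations of same-numbered sheep samples correlated at 0.045 to 0.094.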

Additional observations from a re-analysis of the deposited data

Results flagged for a closer look

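In groups of 5 sheep, 28 gene and group combinations were examined for 1 library far from the rest. The measure was the gap to its nearest neighbour over the whole range, with a critical value of 0.71, and 11 passed. Chance passes about 1 in 20 only where values are spread normally. Plain CPM in sheep sperm was strongly skewed, so the 11 cannot be set against that rate. Sheep 688 had been singled out when the genes were chosen, so its 7 results in sperm, which share 1 library, describe the choice and are no independent evidence. In sheep sperm, sheep 688 lay far above the others for LORICRIN (0.886), CNFN (0.737), TGM1 (0.718), TGM3 (0.888), MUC21 (0.818), NCCRP1 (0.886) and APOBEC1 (0.866). Over the total without the 4 placeholder entries, CNFN at 0.107 and TGM1 at 0.545 no longer passed, and the other 5 did. In brain, the cerebellum of sheep 699 lay below the others for LORICRIN (0.732). It held 3 counts there and the other cerebellum libraries 5 or 6, a difference that so few counts cannot resolve. TGM3 stood out in the motor cortex of sheep 694 (0.881) and in the prefrontal (0.773) and posterior parietal cortex (0.856) of sheep 688, each time on the high side.

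LORICRIN, NCCRP1 and TFF3 were higher in sperm than in brain in all 5 sheep and lower in all 15 rats. This opposite direction was part of how the genes were chosen and was not tested, and species and library kit cannot be told apart.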

How the results depend on the processing

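Without the low-count filter, 18799 genes were called in rat ovary against 11832 with it, and 22067 in rat sperm against 12111; DESeq2 called 18371 in rat sperm. The other listed genes called in rat sperm numbered 57 higher and 27 lower without the filter and 50 and 28 with DESeq2, from larger numbers of genes tested. The ovary difference of Tgm3 turned to 0.023 on the log2 scale with upper quartile factors. With TMM-scaled totals all 8 sheep sperm means rose by more than their SD, as did TFF3 without the 4 placeholder entries, to 1167 CPM. In ovary the other listed genes numbered 63 higher and 28 lower without the filter and 61 and 27 with DESeq2. The other counts over all genes, and over all listed genes in sheep sperm, stayed within 1.5 times, also when each sheep was left out.

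With the animal number as a replicate block, 16268 genes were called in sheep sperm, 17408 between regions, 11837 in ovary and 11925 in rat sperm, there with 4384 higher and 7541 lower against 5663 and 6448 without the block. It changed no call of a tested member. For rats the labels do not say that a number is 1 animal, and same-numbered deviations correlated at -0.039 to 0.091 for ovary and -0.057 to 0.127 for sperm, with 2 of 14 and 4 of 15 samples closest to their own number.

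Members with few counts, such as TGM3 in sheep sperm and Cnfn in rat, are limited by depth, and the 5 sheep by the spread between them.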
